A study of Mus musculus with 6 samples.

Results

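The Myc and Max network is a set of transcription factors of the basic helix-loop-helix leucine zipper (bHLHZip) class. MYC, MYCN and MYCL bind the E-box sequence CACGTG as dimers with MAX and activate genes of growth and division. The MXD proteins, MXI1 and MNT pair with the same partner and recruit the SIN3 corepressor, so they occupy such sites with the opposite effect. MGA pairs with MAX inside a Polycomb complex, and MLX serves as the MAX-like partner of the nutrient-sensing MONDO factors and of some MXD proteins and MNT. In epithelia of the gut, Myc is a known target of Wnt signalling, and MXD1 is known for its induction as cells differentiate.

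The 10 genes were chosen by symbol: Myc, Mycl, Mycn, Max, Mxd1, Mxd4, Mxi1, Mnt, Mga and Mlx, out of 23420 gene rows. Of these, 9 matched by their current symbol, and Mycl was read from the row with its older symbol Mycl1, a RefSeq synonym. All 10 passed the filter on low counts.

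Polyadenylated RNA was sequenced from cells sorted out of Meta4 organoids, a single mouse line of dysplastic epithelial organoids, with 3 libraries of TP-DSCs and 3 of DP-DSCs (dysplastic stem cells). TP and DP are understood as triple and double positive for surface antigens, with CD133 and CD166 on both and the v6 form of CD44 added in TP-DSCs; this reading, and the origin of the line from mouse stomach, are known from the study rather than stated in the labels. Both populations come from this line, and no treatment is named. Samples are called independent in the labels, but separate cultures are not named, so the spread behind each p-value may be technical.

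Reads in genes numbered 17015581 to 31068454 per TP-DSC library and 27027919 to 32671039 per DP-DSC library. Genes with reads numbered 10571 to 10982 in TP-DSC libraries and 12504 to 14434 in DP-DSC libraries. The library names hold the number 3840 (1 library of each population) or 4140 (2 of each), whose meaning the labels leave unstated. The 6 epithelial markers Epcam, Krt8, Krt18, Krt19, Cdh1 and Cldn7 summed to 7730 to 9296 counts per 1000000 gene reads (CPM) in TP-DSCs and 8291 to 10099 CPM in DP-DSCs. Of 6 fibroblast markers, 4 were at 0 in all libraries and the sum was 0 to 2.90 CPM in TP-DSCs and 0.704 to 3.19 CPM in DP-DSCs. The 6 immune markers had no reads in TP-DSCs and summed to at most 0.798 CPM in DP-DSCs, the 4 endothelial markers summed to at most 4.995 CPM in TP-DSCs and 1.78 CPM in DP-DSCs, and the 4 erythroid markers had no reads.

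Among the activators, Myc had the highest mean in both populations, and Mycn spanned a wide range within each. Myc stood at 123, 151 and 99.7 CPM in TP-DSCs replicates 1, 2 and 3, against 111, 121 and 70.3 CPM in DP-DSCs replicates 1, 2 and 3. The highest library was of TP-DSCs and the lowest of DP-DSCs, and the populations overlapped. The means were 125 ± 25.7 CPM in TP-DSCs and 101 ± 26.8 CPM in DP-DSCs (SD, n = 3 each). The log2 fold change of TP-DSCs over DP-DSCs was 0.30 ± 0.26 (SE) in edgeR's quasi-likelihood test, with an adjusted p of 0.999 over all genes. Its 95% interval reached from 0.803-fold to 1.89-fold, which covers a modest decrease as well as a clear increase. In sorted bulk samples, a change in the share of cells with a transcript and a change in its amount per cell cannot be told apart.

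**Figure D1:**
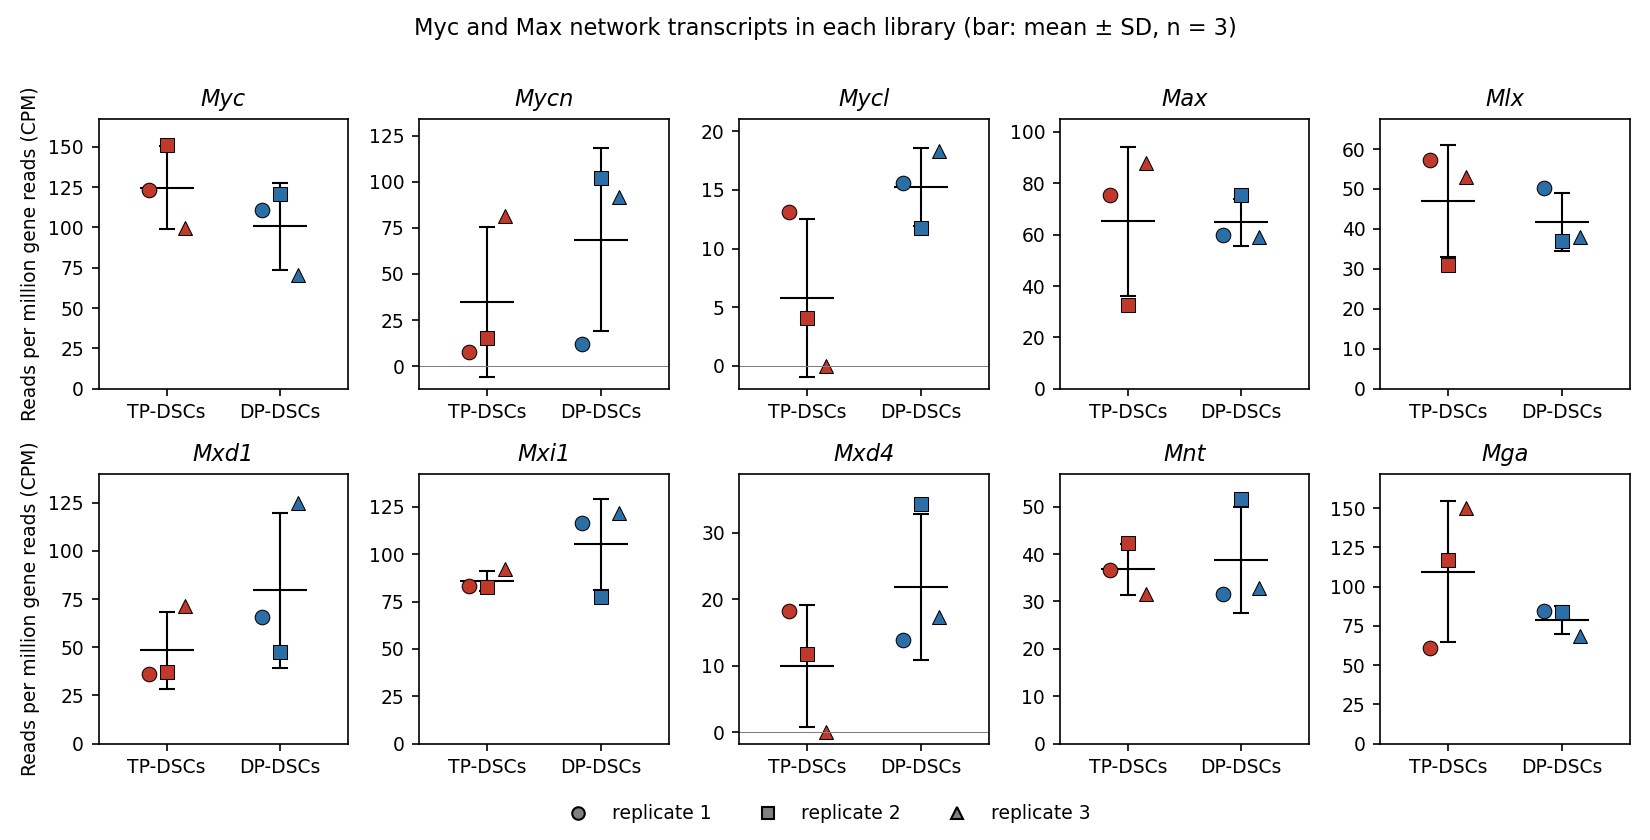
Counts per 1000000 gene reads (CPM; y axis) of the 10 network genes in each library of TP-DSCs (red) and DP-DSCs (blue); symbols mark the replicate, bars the mean ± SD of 3 libraries. The populations overlap for all 10 genes, and Mycn is high in TP-DSCs replicate 3 and in DP-DSCs replicates 2 and 3.

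Mycn, a paralog known from embryonic and neuroblastoma growth, stood at 7.46, 15.2 and 81.7 CPM in TP-DSCs replicates 1, 2 and 3, against 11.8, 102 and 91.9 CPM in DP-DSCs replicates 1, 2 and 3. It was thus high in TP-DSCs replicate 3 and DP-DSCs replicates 2 and 3 and low in the rest, with both populations on each side. The low libraries included both with the number 3840 and TP-DSCs replicate 2, which has the number 4140. From the lowest to the highest library Mycn spanned 13.7-fold, against 2.15-fold for Myc. Its within-population SD on the log2 CPM scale was 1.69, where the median of 4876 tested genes within 0.5 to 2 times its mean level was 0.414 and 98.9% of them had a smaller SD. The edgeR log2 fold change was -1.01 ± 0.99 (SE; adjusted p = 0.999).

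Mycl, the third paralog, was scarce. It stood at 13.2, 4.11 and 0 CPM in TP-DSCs replicates 1, 2 and 3, against 15.6, 11.7 and 18.3 CPM in DP-DSCs replicates 1, 2 and 3. TP-DSCs replicates 2 and 3 lay below every DP-DSC library, while TP-DSCs replicate 1 lay among them. The log2 fold change was -1.35 ± 1.65 (SE; edgeR adjusted p = 0.999). Loss of all reads was uncommon but not rare at this level: of 3353 genes within 0.5 to 2 times its DP-DSC mean, 7.90% had no reads in TP-DSCs replicate 3.

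Counted against each other, the 3 activators gave Mycn 5.18% (95% Wilson interval 4.51 to 5.96), 8.90% (7.92 to 9.995) and 45.0% (43.7 to 46.3) of their reads in TP-DSCs replicates 1, 2 and 3. In DP-DSCs replicates 1, 2 and 3 Mycn held 8.53% (7.75 to 9.38), 43.5% (42.4 to 44.6) and 50.9% (49.5 to 52.3). Intervals here cover counting error only, since reads of amplified libraries are not independent molecules. Myc held the larger share in every library except DP-DSCs replicate 3, where it took 38.9% (37.6 to 40.3). Mycl had 0 of 5635 such reads in TP-DSCs replicate 3, for which the upper Wilson limit is 0.0681% and a floor of 3 counts 0.0532%.

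**Figure D2:**
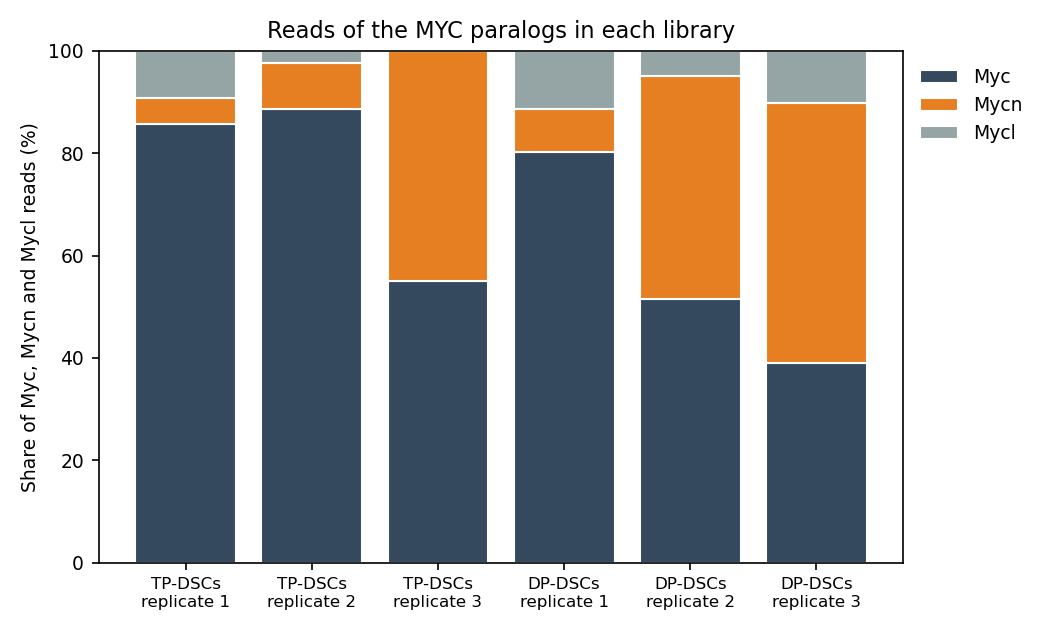
Share of the reads of Myc, Mycn and Mycl taken by each gene (y axis, percent) in the 3 TP-DSC and 3 DP-DSC libraries. Mycn holds 5.18 to 8.90% in TP-DSCs replicates 1 and 2 and DP-DSCs replicate 1, and 43.5 to 50.9% in the remaining 3 libraries.

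The common partners Max and Mlx overlapped between the populations. Max, required by every MYC protein, stood at 75.3, 32.6 and 87.9 CPM in TP-DSCs replicates 1, 2 and 3, against 59.7, 75.4 and 59.1 CPM in DP-DSCs replicates 1, 2 and 3. The lowest and the highest values were both of TP-DSCs. The log2 fold change was 0.01 ± 0.37 (SE; edgeR adjusted p = 0.999), with a 95% interval from 0.55-fold to 1.85-fold. Mlx averaged 47.1 ± 14.03 CPM in TP-DSCs and 41.7 ± 7.35 CPM in DP-DSCs, a log2 fold change of 0.16 ± 0.34 (SE; edgeR adjusted p = 0.999). In 1 exon, Mlx overlaps Psmc3ip on the opposite strand in GENCODE M21, and the strand setting of the counting is not given in the sources used here; Psmc3ip itself averaged 5.49 ± 2.42 CPM in TP-DSCs and 4.65 ± 2.71 CPM in DP-DSCs.

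Of the partners that oppose MYC, Mxd1 had the smallest p of the 10 genes without passing. Mxd1 stood at 36.1, 37.4 and 71.6 CPM in TP-DSCs replicates 1, 2 and 3, against 66.0, 47.8 and 124.9 CPM in DP-DSCs replicates 1, 2 and 3. TP-DSCs replicates 1 and 2 lay below all DP-DSC libraries, and TP-DSCs replicate 3 lay above 2 of them. The log2 fold change was -0.76 ± 0.44 (SE; edgeR adjusted p = 0.999), with a 95% interval from 0.292-fold to 1.197-fold. The unadjusted p was 0.122.

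Mxi1, a MYC antagonist of the MXD type, was almost level across TP-DSCs at 83.3, 82.6 and 92.0 CPM, against 116.5, 77.6 and 122 CPM in DP-DSCs. The log2 fold change was -0.32 ± 0.25 (SE; edgeR adjusted p = 0.999). In GENCODE M21, 7 of its annotated exons overlap Gm10197 on the opposite strand, which was not analysed here. Mxd4, known as a marker of cells that leave the cycle, stood at 18.2, 11.7 and 0 CPM in TP-DSCs, against 13.8, 34.3 and 17.4 CPM in DP-DSCs. Its log2 fold change was -1.07 ± 1.56 (SE; edgeR adjusted p = 0.999), and 4.16% of 4114 genes of like DP-DSC level had no reads in TP-DSCs replicate 3. Mnt, the broadly expressed repressor that sets the resting counterweight to MYC, averaged 36.8 ± 5.42 CPM in TP-DSCs and 38.7 ± 11.2 CPM in DP-DSCs, a log2 fold change of -0.07 ± 0.30 (SE; edgeR adjusted p = 0.999).

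Mga, the giant MAX partner of the PRC1.6 complex, stood at 61.2, 117 and 150.4 CPM in TP-DSCs replicates 1, 2 and 3, against 84.4, 83.8 and 68.7 CPM in DP-DSCs replicates 1, 2 and 3. TP-DSCs replicates 2 and 3 lay above and replicate 1 below all DP-DSC libraries. The log2 fold change was 0.43 ± 0.30 (SE; edgeR adjusted p = 0.999).

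Across the network, 0 of the 10 genes passed an adjusted p of 0.05 in edgeR, in DESeq2 or in limma-voom, and 0 had an unadjusted p under 0.05 in edgeR. Over all genes edgeR called 0 of 11925 (0%), limma-voom 0 (0%; 961 at an unadjusted p under 0.05) and DESeq2 278 of 12889 (2.16%, of which 0.326% higher and 1.83% lower in TP-DSCs), and 6.1% had an unadjusted p under 0.05 in edgeR. In 0 of the 10 genes were the populations separated, where 12.4% of all tested genes had populations that did not overlap. That share holds 387 genes without reads in any TP-DSC library, of which 0 were members. Such genes passed the filter on low counts only through DP-DSCs, which fixed their direction. The median log2 fold change was -0.20 over the 10 genes and -0.02 over all tested genes, with 4 genes above and 6 below 0. All 10 intervals included 0, and those of Mycl, Mycn and Mxd4 were wide on both sides of 0.

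Split by the number in the library names, both sets had the same sign for 6 of the 10 genes and opposite signs for 4. No share over all tested genes stands beside this count, so it is not read as agreement. As differences of mean log2 CPM, Myc differed by 0.19 in the 3840 pair and 0.37 in the 4140 libraries, Mycn by -0.62 and -1.50, Mxd1 by -0.84 and -0.62, Mxi1 by -0.45 and -0.20, Mlx by 0.22 and 0.07, and Mycl by -0.22 and -4.74, in the same order. Opposite signs were seen for Max (0.37 and -0.36), Mnt (0.24 and -0.21), Mga (-0.43 and 0.77) and Mxd4 (0.42 and -4.73). The values of -4.74 for Mycl and -4.73 for Mxd4 come with the count of 0 in TP-DSCs replicate 3. The 3840 pair has 1 library of each population and no replicate check.

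**Figure D3:**
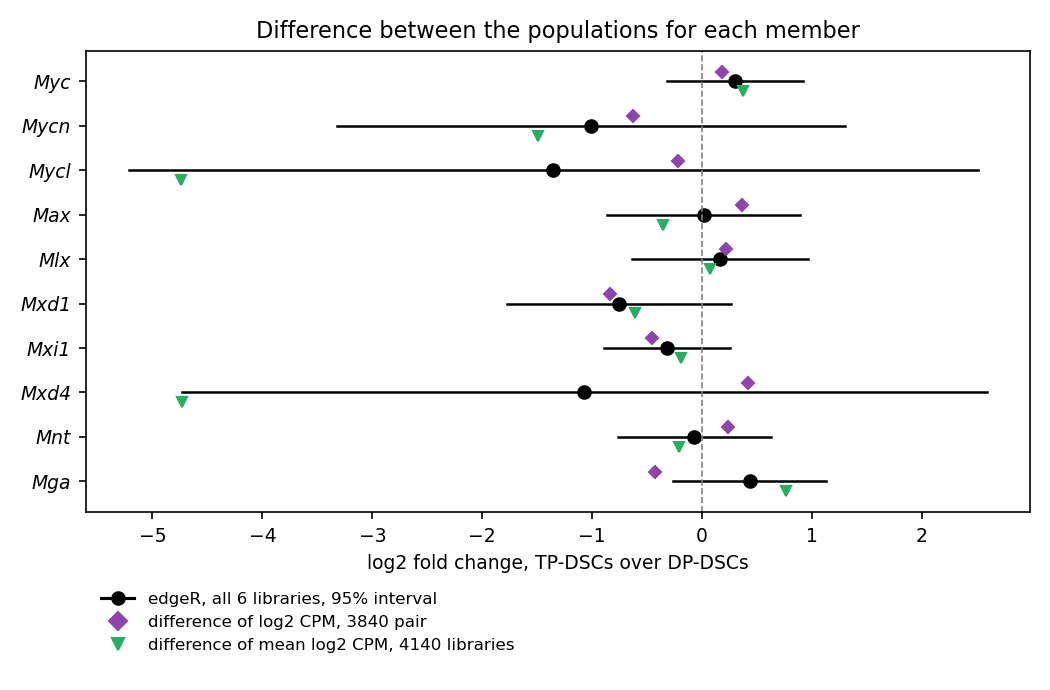
Log2 fold change of TP-DSCs over DP-DSCs (x axis) of the 10 genes: circles with 95% intervals are from edgeR over all 6 libraries, diamonds the 3840 pair and triangles the 4140 libraries. All 10 intervals cross 0, and Max, Mxd4, Mnt and Mga have diamonds and triangles on opposite sides of 0.

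By mean level per length of transcript, the activator Myc led the network in both populations, though not in every library. Divided by the kilobases (kb) of the longest coding transcript, levels in TP-DSCs ran from Myc (53.3 ± 11 CPM per kb; SD, n = 3) through Max (33.6 ± 14.9), Mlx (23.9 ± 7.14), Mxi1 (17.1 ± 1.05), Mycn (13.0 ± 15.3) and Mxd1 (10.4 ± 4.31) to Mnt (8.02 ± 1.18), Mga (7.86 ± 3.23), Mxd4 (2.57 ± 2.38) and Mycl (1.64 ± 1.92). In DP-DSCs the levels per kb were 43.0 ± 11.5 for Myc, 33.3 ± 4.76 for Max, 25.7 ± 18.5 for Mycn, 21.2 ± 3.74 for Mlx, 20.9 ± 4.79 for Mxi1 and 17.1 ± 8.65 for Mxd1. Mnt (8.43 ± 2.43), Mga (5.67 ± 0.637), Mxd4 (5.64 ± 2.82) and Mycl (4.35 ± 0.947) followed. Each neighbouring pair in these orders overlapped between libraries, except Mnt and Mga in DP-DSCs. Max (45.3 CPM per kb) lay above Myc (42.6) in TP-DSCs replicate 3. In DP-DSCs replicate 3, Mycn (34.4) and Max (30.4) lay above Myc (30.05). Mga, with a transcript of 13931 bases, was second in CPM to Myc in TP-DSCs and far lower per kb. The longest transcript may not be the one used, so levels between genes are approximate.

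Summed per kb, Myc, Mycn and Mycl came to 59.2, 71.5 and 73.2 CPM per kb in TP-DSCs replicates 1, 2 and 3, against 56.2, 93.3 and 69.6 CPM per kb in DP-DSCs replicates 1, 2 and 3. The MAX partners Mxd1, Mxd4, Mxi1, Mnt and Mga together came to 41.3, 45.1 and 51.3 CPM per kb in TP-DSCs, against 53.8, 51.8 and 67.6 CPM per kb in DP-DSCs. The ratio of these sums was 1.43, 1.59 and 1.43 in TP-DSCs, against 1.04, 1.80 and 1.03 in DP-DSCs. TP-DSC libraries were thus close to each other in this ratio and lay inside the range of the DP-DSC libraries, with DP-DSCs replicate 2 the highest.

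Network proteins bind CACGTG, so the promoters of the members were searched for these letters, which read the same on both strands. The RefSeq promoter windows on GRCm38.p6 run from 250 bases before to 50 after a start site, and 9 of the 10 genes had at least 1; Myc had no entry. The motif was present in Max, Mnt, Mlx and Mxd4, that is in 4 of 9 genes, against 12.2% of 8922 tested genes with a window and 7.15% of all 32851 windows. These 4 are shown, in capitals the motif and in lower case 20 bases on each side, 5′ to 3′ on the strand of the gene.
Max (chr12:76962226-76962271, minus strand): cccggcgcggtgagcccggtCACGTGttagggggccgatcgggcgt
Mnt (chr11:74830781-74830826, plus strand): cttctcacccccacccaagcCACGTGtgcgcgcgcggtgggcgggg
Mlx (chr11:101087230-101087275, plus strand): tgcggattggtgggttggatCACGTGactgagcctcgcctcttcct
Mxd4 (chr5:34187904-34187949, minus strand): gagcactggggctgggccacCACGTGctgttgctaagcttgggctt
The motif began 3 bases before the start site in Max, 40 before in Mlx, 123 before in Mnt and 219 before in Mxd4. The 4 genes did not share a direction, with log2 fold changes of 0.01, 0.16, -0.07 and -1.07 in that order. Over the 8922 tested genes with a window, the median log2 fold change was -0.05 for 1086 genes with the motif and -0.02 for 7836 without it. A match describes the letters of the window and shows no binding.

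The wider network was described with 10 lists that together held 170 genes with a row, 166 of them tested. Of these, 0 passed in edgeR in either direction, 1 was higher and 5 lower at an unadjusted p under 0.05 (1.43 and 4.67% of all tested genes), and DESeq2 called 1. Every TP-DSC library lay above every DP-DSC library in 5 genes and below in 12, against 3.87 and 8.56% of all tested genes. The MXD gene Mxd3, with 0 reads in TP-DSCs, is among the 5 lower and the 12 below. It passed the filter only through DP-DSCs, which fixed its direction, as for 387 of all tested genes. The median of the 166 was -0.05, and 74 of them lay above 0, against 5752 of all 11925 tested genes. Leaving out 1 library at a time, several list medians crossed 0. Among these were the cofactors of MYC (-0.17 to 0.06), the SIN3 corepressor (-0.08 to 0.08) and the MGA complex (-0.07 to 0.12). So did the targets in ribosome biogenesis (-0.10 to 0.08), in metabolism and growth (-0.07 to 0.05) and repressed by MYC (-0.34 to 0.06).

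**Figure D4:**
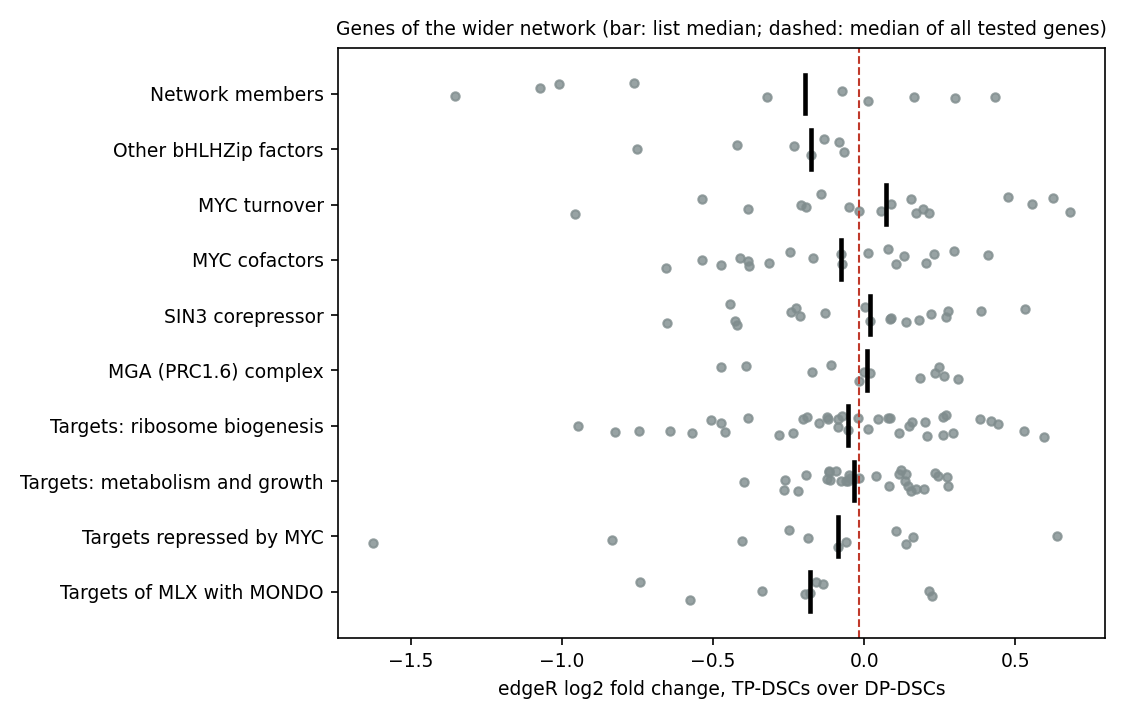
edgeR log2 fold change of TP-DSCs over DP-DSCs (x axis) of each tested gene in the network and in 9 of the 10 related lists; the list of 3 other network genes is left out because of Mxd3. Black bars are list medians, which lie between -0.20 and 0.07, and the dashed line is the median of all tested genes at -0.02.

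Of the 3 other network genes, Mxd3, an MXD protein known from proliferating cells in S phase, had 0 reads in all TP-DSC libraries, against 0.767, 1.10 and 2.04 CPM in DP-DSCs replicates 1, 2 and 3. Against a floor of 3 counts over the TP-DSC libraries it was at least 30.6-fold lower in reads (edgeR adjusted p = 0.121; DESeq2 adjusted p = 0.103). With no TP-DSC reads, Mxd3 passed the filter on low counts only through DP-DSCs, which fixed its direction, so these values support no difference. Of 1176 genes of like DP-DSC level, 73.5% likewise lacked reads in TP-DSCs replicate 1, 77.2% in replicate 2 and 78.6% in replicate 3. Mxd3 shares an exon region with Prelid1 on the opposite strand, which averaged 358 ± 77.2 CPM in TP-DSCs and 320.6 ± 37.0 CPM in DP-DSCs. Mlxip (MONDOA), a partner of MLX, was level in TP-DSCs at 70.1, 70.5 and 69.1 CPM, against 101.7, 98.7 and 58.6 CPM in DP-DSCs. Mlxipl (ChREBP) was low, at 10.4, 8.52 and 0 CPM in TP-DSCs replicates 1, 2 and 3 (mean 6.30 ± 5.54). In DP-DSCs it averaged 4.18 ± 3.16 CPM.

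Genes that set the life of the MYC protein had 10 of 18 tested members above 0 and a median of 0.07. Fbxw7, the substrate receptor of the ligase that marks MYC for degradation, stood at 10.3, 11.9 and 8.24 CPM in TP-DSCs, against 21.5, 19.3 and 17.7 CPM in DP-DSCs. The populations did not overlap, with a log2 fold change of -0.96 ± 0.53 (SE; edgeR adjusted p = 0.999). Fbxw7 was the 1 gene below among the 18, with 0 above, against 8.56 and 3.87% of all tested genes. Stub1, another ubiquitin ligase, had a log2 fold change of -0.38. The mitotic kinases Plk1 and Aurka, which stabilize MYC proteins, were at log2 fold changes of 0.68 ± 0.32 and 0.56 ± 0.39 (SE) and did not pass.

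Cofactors of MYC had 8 of 19 tested members above 0 and a median of -0.08. Ruvbl2, an ATPase of the TIP60 complex, averaged 69.2 ± 15.6 CPM in TP-DSCs and 107.5 ± 26.9 CPM in DP-DSCs, a log2 fold change of -0.65 ± 0.25 (SE; edgeR adjusted p = 0.661). Cdk9, the kinase of elongation, averaged 70.4 ± 13.4 and Wdr5, a chromatin anchor of MYC, 58.1 ± 18.3 CPM in TP-DSCs, against 92.7 ± 10.5 and 81.6 ± 17.8 CPM in DP-DSCs. Ep400, the scaffold that carries Ruvbl2, averaged 169 ± 39.6 CPM in TP-DSCs and 126 ± 32.0 CPM in DP-DSCs.

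The SIN3 corepressor that MXD proteins recruit had 11 of 19 tested members above 0 and a median of 0.02. Suds3, a SIN3 subunit, stood at 95.95, 88.9 and 97.7 CPM in TP-DSCs, against 106, 139 and 133 CPM in DP-DSCs, without overlap (log2 fold change -0.43 ± 0.18 SE; edgeR adjusted p = 0.789). Suds3 was the 1 gene below among the 19, with 0 above, against 8.56 and 3.87% of all tested genes. The histone-binding subunit Rbbp4 and the subunits Brms1 and Arid4a were at log2 fold changes of -0.42, -0.65 and 0.53 and did not pass. In the MGA complex, 6 of 12 were above 0 with a median of 0.01. Its E2F subunit E2f6 averaged 22.2 ± 2.40 CPM in TP-DSCs and 28.9 ± 3.36 CPM in DP-DSCs, and its PCGF subunit Pcgf6 40.7 ± 1.77 CPM in TP-DSCs and 33.4 ± 2.01 CPM in DP-DSCs. Both were without overlap, in opposite directions, with an edgeR adjusted p of 0.999 each. They were the 1 gene below and the 1 above among the 12, against 8.56 and 3.87% of all tested genes. Yaf2, a RYBP paralog, had a log2 fold change of 0.23.

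Targets of MYC in ribosome biogenesis were split, with 18 of 39 above 0 and a median of -0.05. Gnl3 (nucleostemin) averaged 161 ± 36.2 CPM in TP-DSCs and 110.1 ± 11.2 CPM in DP-DSCs, with a log2 fold change of 0.53 ± 0.19 (SE; edgeR adjusted p = 0.580). Rrp12 averaged 19.8 ± 2.51 CPM in TP-DSCs and 37.97 ± 11.2 CPM in DP-DSCs (log2 fold change -0.95 ± 0.34 SE; edgeR adjusted p = 0.569). Noc4l, a processing factor of the small subunit, had a log2 fold change of -0.82 ± 0.30 (SE) and Bop1, of the large subunit, of -0.75 ± 0.33. The nucleolar protein Ncl (nucleolin), the gene that DESeq2 called (adjusted p = 0.0185) and edgeR did not (adjusted p = 0.983), stood at 1198, 1445 and 1236 CPM in TP-DSCs, against 941, 1033 and 967 CPM in DP-DSCs. Ncl was chosen after its values were seen. Without overlap, 3 of the 39 genes lay above and 3 below, against 3.87 and 8.56% of all tested genes.

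Targets in metabolism and growth had 14 of 31 tested members above 0 and a median of -0.03. Slc3a2, the heavy chain of amino acid transporters, averaged 194.8 ± 26.1 CPM in TP-DSCs and 253 ± 43.8 CPM in DP-DSCs. The chaperonin Hspd1 averaged 840.5 ± 144 CPM in TP-DSCs and 685 ± 111 CPM in DP-DSCs, and the purine enzyme Ppat had a log2 fold change of -0.26. Of genes repressed by MYC, 4 of 11 were above 0 with a median of -0.09. The stress gene Gadd45b stood at 82.7, 73.5 and 66.3 CPM in TP-DSCs, against 98.0, 100.1 and 95.2 CPM in DP-DSCs, without overlap (log2 fold change -0.41 ± 0.20 SE; edgeR adjusted p = 0.988). Gadd45b was the 1 gene below among the 11, with 0 above, against 8.56 and 3.87% of all tested genes. The CDK inhibitor Cdkn2b, Gadd45a and Gas1 had log2 fold changes of -0.83 ± 0.53, -0.25 ± 0.33 and -1.62 ± 2.26 (SE). Gas1 was near the floor, at 0.160, 1.29 and 0 CPM in TP-DSCs, against 3.16, 0 and 0.999 CPM in DP-DSCs.

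Targets of MLX with the MONDO factors had 2 of 9 tested members above 0 and a median of -0.18, which turned to 0.20 without DP-DSCs replicate 1 and was -0.34 without TP-DSCs replicate 1. Klf10 averaged 48.2 ± 13.6 CPM in TP-DSCs and 71.4 ± 14.6 CPM in DP-DSCs, and the lipogenic enzyme Acly 499 ± 46.1 CPM in TP-DSCs and 567 ± 19.0 CPM in DP-DSCs, both without overlap and with an edgeR adjusted p of 0.999. Without overlap, 0 of the 9 genes lay above and 2 below, against 3.87 and 8.56% of all tested genes. Elovl6 and Pklr had log2 fold changes of 0.22 ± 0.24 and -0.74 ± 0.84 (SE). Other bHLHZip factors had 0 of 7 tested members above 0 and a median of -0.17, which ran from -0.47 to -0.02 leaving out 1 library. As differences of mean log2 CPM, their median was 0.05 in the 3840 pair and -0.48 in the 4140 libraries. Srebf2, the regulator of sterol synthesis, averaged 254.6 ± 51.2 CPM in TP-DSCs and 339.6 ± 16.9 CPM in DP-DSCs without overlap (log2 fold change -0.42 ± 0.22 SE; edgeR adjusted p = 0.999). Srebf2 was the 1 gene below among the 7, with 0 above, against 8.56 and 3.87% of all tested genes. Srebf1, Tfap4 and Usf1 had log2 fold changes of -0.23, -0.75 and -0.17.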

How the data were processed

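Raw read counts per gene symbol were deposited by the authors, 1 file per library, with no normalization apparent in the values; reads in no gene and ambiguous reads (14.1 to 20.3% and 1.09 to 1.86% of reads) were left out. Per the submitters' processing notes, STAR 2.7.3a, Partek, DESeq2 3.5 and build mm10 were used; their roles, the annotation and the strand setting of the counting are, in the sources used here, not given, so overlapping genes may share reads. The kit is stranded and polyA-selected, per the labels' protocols.

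CPM are counts over the library's gene reads. In R 4.3.3, edgeR 4.0.16 was run with filterByExpr (minimum count 10, minimum total 15), TMM factors and the quasi-likelihood F test, group as the only term, two-sided, Benjamini-Hochberg adjustment over 11925 genes at 0.05; SE is the log2 fold change over the square root of F. Log2 CPM use TMM factors and a prior count of 2. The script was tested on simulated data. Alternatives used other scaling, DESeq2 1.42.0, limma 3.58.1 (voom), other filters, the library number as a block or 4140 alone, and each library left out. Replicates are numbered in order of deposit and pair no samples. Transcript lengths are from GENCODE M21 (GRCm38, the assembly of mm10), promoter sequences from RefSeq (GRCm38.p6).

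The members and lists were chosen with earlier results of these data known. Named were all members, up to 4 genes per list by edgeR p, any gene called, and the 5 genes most like Myc; a gene that this rule takes is not reported here.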

Additional observations from a re-analysis of the deposited data

How the results depend on the processing

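No member of the network was called under any of the alternatives run, and edgeR and limma-voom called 0 genes in each. DESeq2 called 42 genes higher and 236 lower in TP-DSCs on all rows, and 7 higher and 86 lower on the genes kept by filterByExpr, a setting added after seeing the data. Max, near 0 at 0.01 (log2), was -0.015 with upper-quartile factors, -0.022 in limma-voom, -0.011 without a filter, -0.0063 with the library number as a block and -0.21 in the 4140 libraries alone. Leaving out 1 library at a time, Max ran from -0.20 to 0.35, Mnt from -0.20 to 0.13 and Mlx from -0.084 to 0.41. These genes thus have no settled direction, and the cause was not tested. Mnt was at 0.13 without DP-DSCs replicate 2 and 0.06 without TP-DSCs replicate 3, and Mlx lay below 0 without TP-DSCs replicate 1. Myc ran from 0.08 to 0.46, Mycn from -2.58 to -0.56, Mxd1 from -1.11 to -0.28, Mga from 0.17 to 0.67, Mxi1 from -0.54 to -0.21, Mycl from -2.99 to -0.77 and Mxd4 from -1.97 to -0.48. Of the recomputed member values, 156 kept their direction and 12, all of Max, Mnt or Mlx, did not. Restricted to genes with reads in all 6 libraries, where Mycl and Mxd4 drop out, the members' median was near 0 (-5e-06). The numbers 3840 and 4140 in the library names were fitted as a block (Myc 0.31, edgeR adjusted p = 0.947), which called 0 genes; replicate numbers themselves pair no samples. In limma-voom Mycl was at -4.42 and Mxd4 at -4.39, against -1.35 and -1.07 in edgeR and -1.35 and -1.06 in DESeq2. In TP-DSC libraries 1 read is worth 0.0322 to 0.0588 CPM, where Mxd3 had a pooled level of 1.26 CPM in DP-DSCs. The cause of its 0 reads in TP-DSCs was not tested. The 0 counts of Mycl and Mxd4, and of Mlxipl outside the members, are in TP-DSCs replicate 3, the deepest of the 3 TP-DSC libraries. Their cause was not tested.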

Other observations

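Pvt1, a noncoding RNA whose locus neighbours Myc, stood at 10.3, 33.3 and 27.2 CPM in TP-DSCs replicates 1, 2 and 3, against 17.2, 11.3 and 13.6 CPM in DP-DSCs replicates 1, 2 and 3. The lowest and the highest values were both of TP-DSCs, and the log2 fold change was 0.69 ± 0.57 (SE; edgeR adjusted p = 0.999). As a difference of mean log2 CPM it was -0.70 in the 3840 pair and 1.24 in the 4140 libraries.

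The genes whose profile over the 6 libraries was closest to that of Myc were Cers6, a ceramide synthase, Wbp7, Chd1, a chromatin remodeler, Phf17 and Ptprg, a receptor phosphatase. Closeness was the root mean square difference of log2 CPM after centring, which was 0.107 for Cers6, 0.113 for Wbp7, 0.124 for Chd1, 0.137 for Phf17 and 0.137 for Ptprg, over 8023 genes whose mean log2 CPM reached 4 and a median of 0.492. Cers6 stood at 30.5, 43.7 and 27.5 CPM in TP-DSCs, against 30.3, 34.2 and 22.3 CPM in DP-DSCs. Its likeness to Myc follows from its choice as the closest of 8023 genes over these same 6 libraries. It is therefore no evidence of a link between the genes. Of the 7 other members above that level, Mnt was the closest to Myc, at 0.291 and rank 548, and Mycn the farthest, at 1.77 and rank 8006; Mycl and Mxd4 lay below it and were not compared.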
